A study of Homo sapiens with 7 samples.

Results

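The cytoplasmic ribosomal protein genes are the 81 human protein-coding genes, of 20162 in the annotation, that carry an RPL or RPS symbol with a number and at most 1 suffix letter, together with RPLP0, RPLP1, RPLP2 and RPSA. RPS6K kinase genes do not belong to them. The set holds 49 large subunit and 32 small subunit genes on 21 chromosomes. The rule decides membership by symbol only, without measured values, although the family was picked for description with earlier results of these data known. The data are PIXUL-ChIP-seq peak lists from HCT116, a human colorectal carcinoma cell line. PIXUL is an ultrasound instrument that shears crosslinked chromatin in a 96-well plate. Untreated cells were grown to 200000 per well and sonicated for 6 min in 100 µL, and each antibody was used on chromatin of a single well. The 6 libraries used here were made with antibodies to H3K4me3, H3K9Ac, H3K4me1, H3K36me3, H3K27me3 and CTCF, and the labels also describe an H3K27Ac library, which was not analysed here. Every mark has 1 library, so there was no replicate error and no test, and the 95% Wilson intervals given with shares cover counting error only. The read depth behind the peaks is unknown.

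Ribosomal proteins assemble with ribosomal RNA into the subunits that translate messenger RNA, and proliferating cells such as carcinoma lines need them in large and balanced amounts. Their genes are short, are transcribed in nearly every cell, and typically start transcription at a C within a run of pyrimidines, which gives the messenger RNA the 5′ terminal oligopyrimidine (TOP) sequence through which growth signals regulate its translation. H3K4me3 and H3K9Ac mark the start of active genes, H3K4me1 marks enhancers and the flanks of promoters, H3K36me3 is laid down over transcribed gene bodies, H3K27me3 covers genes repressed by Polycomb, and CTCF is an insulator protein that binds DNA.

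The starts of 9 members are shown because they set typical ribosomal protein promoters beside the exceptions described later. Each sequence was read from hg19 on the strand of the gene and holds 40 bases before the annotated transcription start site (TSS) and 20 from it on, so that base 41 is the TSS. Capitals mark the unbroken run of pyrimidines that contains the TSS, and a sequence with no capitals has a purine there. RPS6, RPS14, RPL11, RPLP0 and RPL10 are typical. RPL32 is the gene whose transcript the study took as the reference of its RNA measurements. RPL10L, RPL39L and RPS27L are paralogs of RPL10, RPL39 and RPS27, and RPL3L, a paralog of RPL3, is described by its values only.
RPS6 (chr9:19380215-19380274, minus strand): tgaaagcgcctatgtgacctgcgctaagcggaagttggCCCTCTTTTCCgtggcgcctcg
RPS14 (chr5:149829283-149829342, minus strand): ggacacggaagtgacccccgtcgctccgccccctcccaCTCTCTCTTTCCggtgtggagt
RPL11 (chr1:24018256-24018315, plus strand): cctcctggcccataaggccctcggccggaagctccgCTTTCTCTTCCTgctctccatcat
RPLP0 (chr12:120638895-120638954, minus strand): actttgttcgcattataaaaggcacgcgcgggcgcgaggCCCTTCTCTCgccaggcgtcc
RPL10 (chrX:153626678-153626737, plus strand): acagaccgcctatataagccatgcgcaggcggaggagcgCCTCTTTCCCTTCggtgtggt
RPL10L (chr14:47120965-47121024, minus strand): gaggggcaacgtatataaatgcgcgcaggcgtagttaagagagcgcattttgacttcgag
RPL39L (chr3:186857265-186857324, minus strand): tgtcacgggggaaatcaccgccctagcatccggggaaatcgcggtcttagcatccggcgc
RPS27L (chr15:63449657-63449716, minus strand): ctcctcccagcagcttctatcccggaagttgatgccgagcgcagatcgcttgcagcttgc
RPL32 (chr3:12883045-12883104, minus strand): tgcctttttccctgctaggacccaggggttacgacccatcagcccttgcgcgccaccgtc

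A C at the TSS followed by 4 pyrimidines was present at 58 of 81 members (71.6%, 95% Wilson interval 61.0 to 80.3%) and at 4.55% of all protein-coding genes. The TSS base alone was C at 62 members (76.5%), against 10.8% of all genes, and it was A at 11 members and G at 8. None of the 4 paralogs starts with this sequence, and neither does the annotated start of RPL32. RPL32 has such a sequence within 5 bp of its annotated TSS, and the 4 paralogs do not. Where a pyrimidine stood at the TSS, the run was up to 25 bases long, in RPL7A. The 78 mitochondrial ribosomal protein genes, whose products form the ribosome of the mitochondrion, had the C and 4 pyrimidines in 6.41%. Allowing the start to lie within 5 bp of the annotated TSS gave 66 members and 21.7% of all genes, so the share in both sets moved with the exact base allowed.

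**Figure D1:**
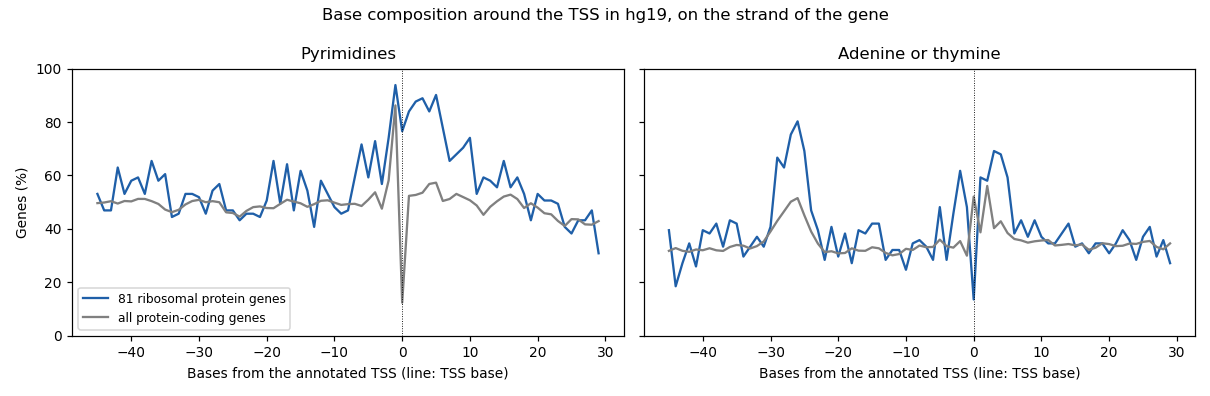
Share of genes with a pyrimidine (left) or with adenine or thymine (right) at each base around the annotated TSS, in percent, for the 81 ribosomal protein genes (blue) and all protein-coding genes (grey). Over the 5 bases after the TSS 84.0 to 90.1% of members have a pyrimidine, against 52.4 to 57.3% of all genes, and adenine or thymine reaches 80.2% of members at 26 bases before the TSS.

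Adenine or thymine stood 26 bases before the TSS in 80.2% of members and 51.5% of all genes. The plain TATA box letters TATAAA, searched on the strand of the gene from 40 to 20 bases before the TSS, were present in 4 members (4.94%), in 3.80% of all genes and in 1.59% of those with H3K4me3, so the A and T at this distance rarely spelled that word. Over the 300 bases from 250 before to 50 after the TSS, and on both strands, the letters CCGGAAG of ETS factor sites were found in 28 members (34.6%), in 14.0% of all promoters and in 21.1% of the promoters of genes with H3K4me3. They were no rarer in mitochondrial ribosomal protein genes (41.0%) and in 26 ribosome biogenesis genes (9, or 34.6%). The letters ATGGCGG, part of the YY1 site, were found in 18.5% of members, 7.78% of all promoters, 11.7% of those with H3K4me3 and 33.3% of the mitochondrial ribosomal protein genes. CCAAT (33.3% and 35.9%), GGGCGG (61.7% and 60.9%) and CACGTG (6.17% and 8.74%) had similar shares in members and in all promoters. In the promoters with H3K4me3 the shares of GGGCGG and CACGTG were 78.7% and 10.5%, so GGGCGG was less frequent in members (95% Wilson interval 50.8 to 71.6%) than there. This was not particular to members, since GGGCGG was found in 60.3% of the mitochondrial ribosomal protein genes and 69.2% of the ribosome biogenesis genes. GC content had a median of 60% in members and 63.3% in all promoters. These matches describe the letters in the window and say nothing of binding.

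Peaks were counted when they passed the limits of the study's methods, a q-value below 1e-10 with a fold enrichment above 5, or, for H3K4me1 and H3K27me3, a q-value below 0.001 with a fold enrichment above 2. Fold enrichment is the ratio of the signal to the background of the peak caller, averaged over the peak. Between 90 (H3K36me3) and 32292 (H3K4me1) peaks per list passed. In the check of the cell type, 6 of 7 colon epithelium markers had an H3K4me3 peak within 1 kb of the TSS, VIL1 being the exception, and 0 of 6 markers of blood, brain, liver, muscle and connective tissue had one.

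At the TSS, that is within 1 kb of it on either side, H3K4me3 was present at 78 of 81 members (96.3%, 95% Wilson interval 89.7 to 98.7%), against 59.1% of all protein-coding genes. H3K9Ac was present at the same 78 members, against 58.5% of all genes. In all 78 both peaks lay over the TSS base itself. Members are short, with a median gene length of 5548 bp against 27220 bp for all genes, and 41.6% of the protein-coding genes of at most 10 kb had H3K4me3 at the TSS. The mitochondrial ribosomal protein genes had both marks in 78 of 78.

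The 3 members without either mark were RPL3L, RPL10L and RPL39L. RPL3L is a variant of RPL3 made in heart and skeletal muscle, RPL10L is an intronless copy of RPL10 made in testis, and RPL39L is a copy of RPL39 also known from testis. None of the 3 had H3K4me1, CTCF, H3K36me3 or H3K27me3 past the limits within 1 kb of the TSS either. The TSS of RPL3L lies 10137 bp from that of RPS2 on chromosome 16, and the edge of the RPS2 peak of H3K4me3 stopped 4498 bp short of it. From the TSS of RPL39L the nearest H3K4me3 peak was 207790 bp away, and from that of RPL10L 1397050 bp. The fourth paralog, RPS27L, a p53 target, had an H3K4me3 peak with a fold enrichment of 26.2 and an H3K9Ac peak with one of 14.9. All 77 members that are not such paralogs had both marks.

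**Figure D2:**
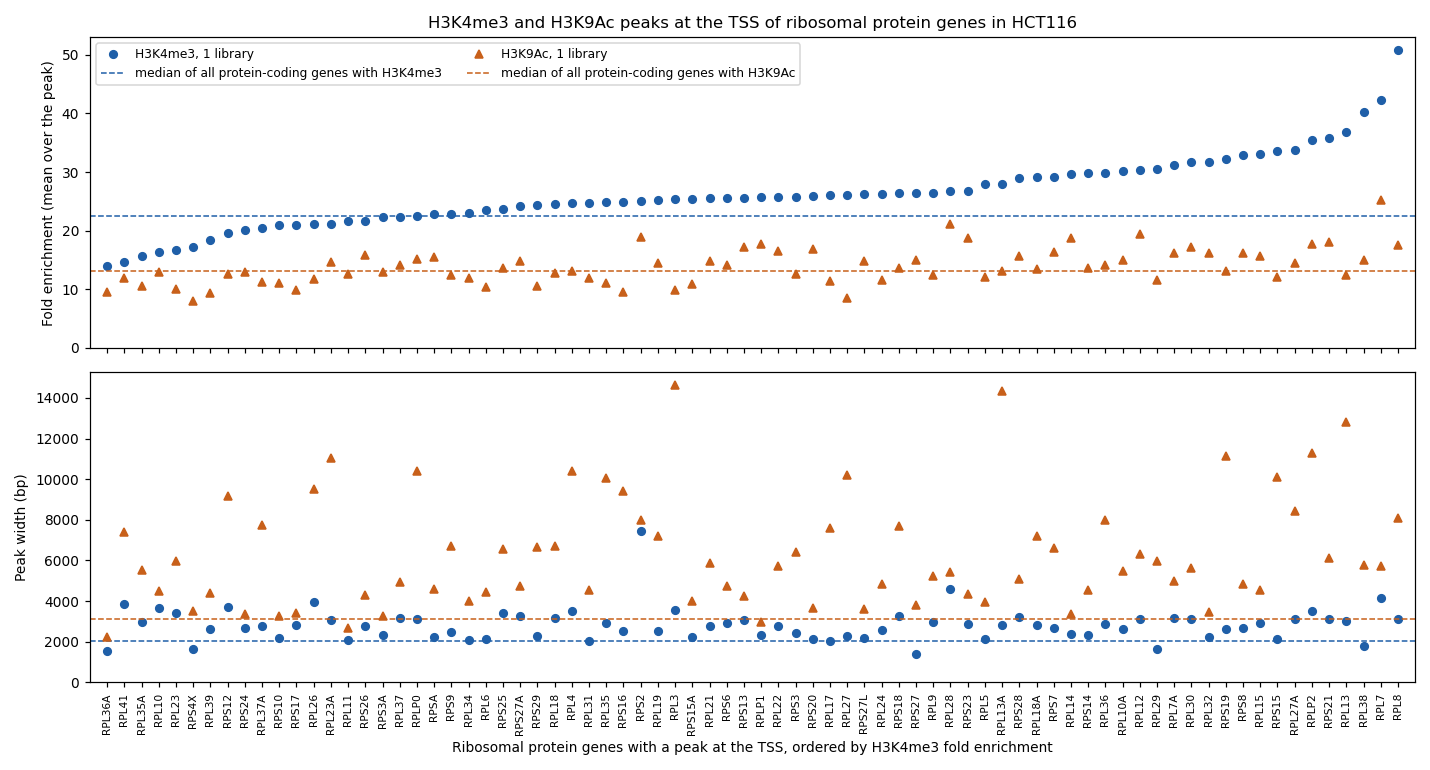
Fold enrichment (top) and width in bp (bottom) of the H3K4me3 (blue circles) and H3K9Ac (orange triangles) peaks at the TSS of the members that have them, 1 library per mark, ordered by H3K4me3 fold enrichment, with 2 members not shown. Dashed lines are the medians over all protein-coding genes with the mark. H3K4me3 fold enrichment runs from 14.0 at RPL36A to 50.8 at RPL8, and most widths lie above the dashed lines.

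The fold enrichment of H3K4me3 had a median of 25.6 over the 78 members (middle 50%, 22.6 to 29.8) and of 22.5 over all genes with the mark (17.3 to 27.8). Of the members, 58 lay above the median of all genes, 10 lay among the highest 10% of values and 0 among the lowest 10%. RPL8, a large subunit protein near the peptidyl transferase centre, had the highest value, 50.8, in a peak on chromosome 8 from 146016095 to 146019197. After it came RPL7 with 42.3, RPL38 with 40.3, RPL13 with 36.9 and RPS21 with 35.8. RPL38 is a large subunit protein known for selective translation of Hox messages.

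Among the lowest values were 14.0 at RPL36A, 14.6 at RPL41, 15.7 at RPL35A and 16.4 at RPL10. RPL41 encodes a very short basic peptide, and RPL10 completes the large subunit late in its maturation. RPL36A, RPL10, RPS4X (17.2) and RPL39 (18.4) are the 4 members on chromosome X, and all 4 were among the 8 lowest. All protein-coding genes with H3K4me3 had a median of 12.8 on X (n = 373) and of 22.9 on the autosomes (n = 11543), so the X-linked members had values above the median of their chromosome. For H3K9Ac the median was 9.48 at the 4 X-linked members and 13.7 at the 74 autosomal ones, against 8.33 and 13.2 over all genes. Single members did not all follow it, since RPS4X, with 8.00, was the lowest of all members and below the X median, and RPL10, with 12.9, was only the 32nd lowest of 78. At the other end, RPL8, RPL7, RPL30 (31.7) and RPS20 (26.0) on chromosome 8 had a median of 37.03, beside 25.6 for all genes there with H3K4me3. The part of the chromosome itself in these values was not tested.

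The following members, named for their roles, had H3K4me3 fold enrichments between 21.6 and 32.3. RPS19, mutated in Diamond-Blackfan anaemia, had an H3K4me3 fold enrichment of 32.3, and RPS14, lost in the 5q- syndrome, had 29.9. RPL5 and RPL11, which together with 5S RNA bind MDM2, had 28.0 and 21.6. RPS6, the substrate of S6 kinases, had 25.5. RPSA, also described as a laminin receptor, had 22.9, and RPLP0, a stalk protein often used as a reference gene, had 22.4. The reference gene of the study, RPL32, had 31.7 with an H3K9Ac fold enrichment of 16.1. All of these but RPLP0 and RPL11 lay above the median of all genes, 22.5.

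Widths set the members further apart from all genes with the mark than fold enrichment did. The H3K4me3 peak was a median of 2777.5 bp wide in members and 2061 bp in all genes with the mark, and 71 of 78 members were above the latter. Wide peaks were not particular to members, since the translation factors and other TOP genes described below had a median of 3112 bp. Among members RPS2 had the widest, 7446 bp on chromosome 16 from 2009188 to 2016633. It was ahead of RPL28 with 4579 bp, RPL7 with 4165 bp, RPL26 with 3964 bp and RPL41 with 3872 bp. The narrowest were 1399 bp at RPS27, 1526 bp at RPL36A, 1642 bp at RPL29, 1652 bp at RPS4X and 1813 bp at RPL38. RPL38 thus combined the third highest fold enrichment with the fifth narrowest peak, and RPL41 the second lowest with the fifth widest. Across the 78 members, fold enrichment and width were unrelated (Spearman's rho -0.03), whereas rho was 0.35 across the 11924 genes with the mark. These coefficients describe genes of 1 library, which share its depth.

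For H3K9Ac the fold enrichment was close to that of other genes, with medians of 13.6 and 13.1, but the peaks were far wider. Their median width was 5727 bp in members (middle 50%, 4403 to 7928 bp) and 3112 bp in all genes with the mark. Of the 78 members 75 exceeded the latter, and 31 lay among the widest 10% of all genes. Most of the extra width lay downstream of the TSS, in part past the end of these short genes. The peaks reached a median of 3613.5 bp downstream and 1637 bp upstream of the TSS in members, against 1689 and 1245 bp in all genes.

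In 29 members (35.8%, 95% Wilson interval 26.2 to 46.7%) H3K9Ac peaks covered the whole annotated gene, against 2.06% of all protein-coding genes. Gene length bears on this count, and among genes of at most 10 kb with H3K4me3 at the TSS the share was 17.8%, against 29 of the 60 members of at most 10 kb (48.3%). The widest H3K9Ac peak, 14631 bp, covered RPL3 on chromosome 22 from 39703130 to 39717760. Mitochondrial ribosomal protein genes had narrow H3K9Ac peaks, with a median of 2910 bp. The fold enrichment of both marks was less closely related in members (rho 0.54, n = 78) than over all genes with both (rho 0.79, n = 11590).

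**Figure D3:**
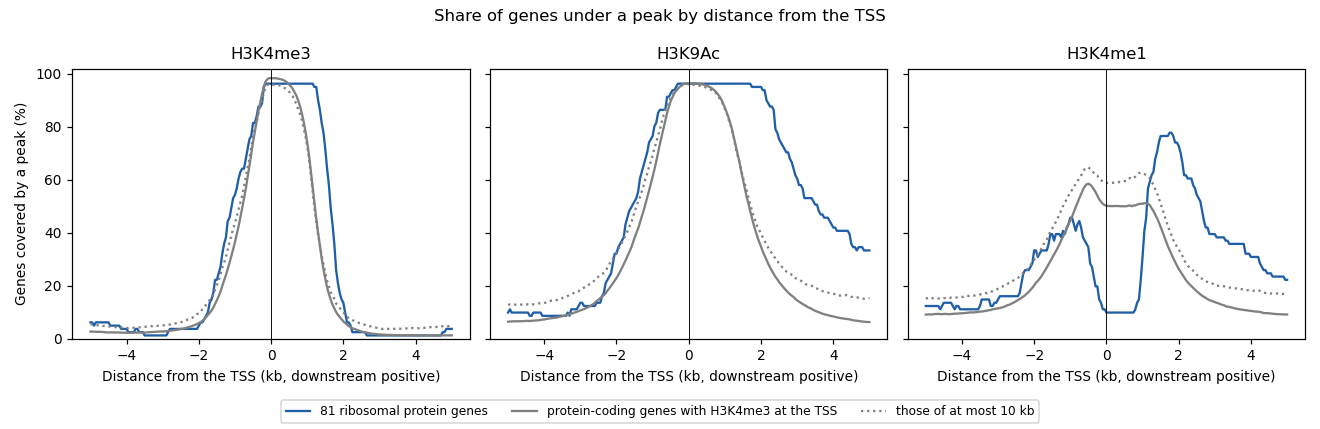
Percent of genes covered by a peak of H3K4me3 (left), H3K9Ac (middle) and H3K4me1 (right) at each distance from the TSS in kb, for the 81 members (blue), all protein-coding genes with H3K4me3 at the TSS (solid grey) and those of at most 10 kb (dotted grey). H3K9Ac stays over 95.1% of members 2 kb downstream, and H3K4me1 covers 9.88% of members at the TSS and 76.5% at 1.5 kb downstream.

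H3K4me1 lay beside the members rather than over their starts. Within 1 kb of the TSS a peak was present at 53 of 81 members (65.4%, 95% Wilson interval 54.6 to 74.9%), against 49.1% of all genes. Among genes with H3K4me3 at the TSS the share was 67.9% in members (95% Wilson interval 57.0 to 77.3%). In all such genes it was 74.5%, which lies within that interval. The share there was 82.6% in genes of at most 10 kb and 67.9% in the mitochondrial ribosomal protein genes. Over the TSS base a peak was present at only 8 of the 78 members with H3K4me3 (10.3%, 95% Wilson interval 5.29 to 19.0%), against 50.2% of all genes with H3K4me3. The same share was 58.8% in genes of at most 10 kb and 34.6% in the mitochondrial ribosomal protein genes. RPL7, RPL11, RPL29, RPL38, RPS7, RPS15 and RPS27 were among the 8, and of these RPL11, RPL29, RPL38, RPS15 and RPS27 had H3K4me3 peaks of 2123 bp or less. RPL7, however, had one of the widest H3K4me3 peaks of all members, and a link with width was not tested.

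H3K4me1 was more frequent on the flanks of members than over the TSS base, and the shares differed more from those of other genes downstream. At 0.5 kb downstream of the TSS it covered 9.88% of members and 50% of all genes with H3K4me3, at 1 kb 30.9% and 50.9%, at 1.5 kb 76.5% and 42.2%, and at 3 kb 39.5% and 13.9%. At 1 kb upstream the shares were 45.7% and 44.6%. A peak lay somewhere between 1 and 3 kb downstream of 64 of the 78 members with H3K4me3 (82.1%, 95% Wilson interval 72.1 to 89.0%), of 61.3% of all genes with it and of 71.4% of those of at most 10 kb. Between 1 and 3 kb upstream it lay at 49 members (62.8%), 50.4% of all these genes and 62.3% of the short ones. On both sides it lay at 41 members (52.6%, 95% Wilson interval 41.6 to 63.3%), against 37.5% and 50.3%. By these counts the upstream flank of members was close to that of short genes. Downstream, H3K4me1 covered 62.4% of the short genes with H3K4me3 at 1 kb, 51.1% at 1.5 kb and 20.4% at 3 kb. Members had a lower share at 1 kb and higher shares at 1.5 and 3 kb. The low share over the TSS base also set members apart from short genes. The count of members with H3K4me1 at the TSS therefore moved with the window, from 28 (34.6%) within 0.5 kb, against 41.6% of all genes, to 73 (90.1%) within 2 kb, against 53.7%. Its fold enrichment, with a median of 4.53 in members and 4.69 in all genes, did not set them apart.

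H3K36me3 was strong over the bodies of these genes. Of the 90 peaks past the limits in the whole list, 16 lay over a member (17.8%, 95% Wilson interval 11.2 to 26.9%). Such a peak was present in the body of 16 of 81 members (19.8%, 95% Wilson interval 12.5 to 29.7%), against 0.496% of all protein-coding genes and 0.818% of those of at most 10 kb. It was within 1 kb of the TSS in 14 members (17.3%), against 0.298% of all genes, and over the TSS base in 0. The highest were RPL8 with a fold enrichment of 8.45, RPL4 with 7.79, RPL13A with 7.67, RPL3 with 7.50 and RPL5 with 7.17. Of the mitochondrial ribosomal protein genes 1 of 78 had such a peak.

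**Figure D4:**
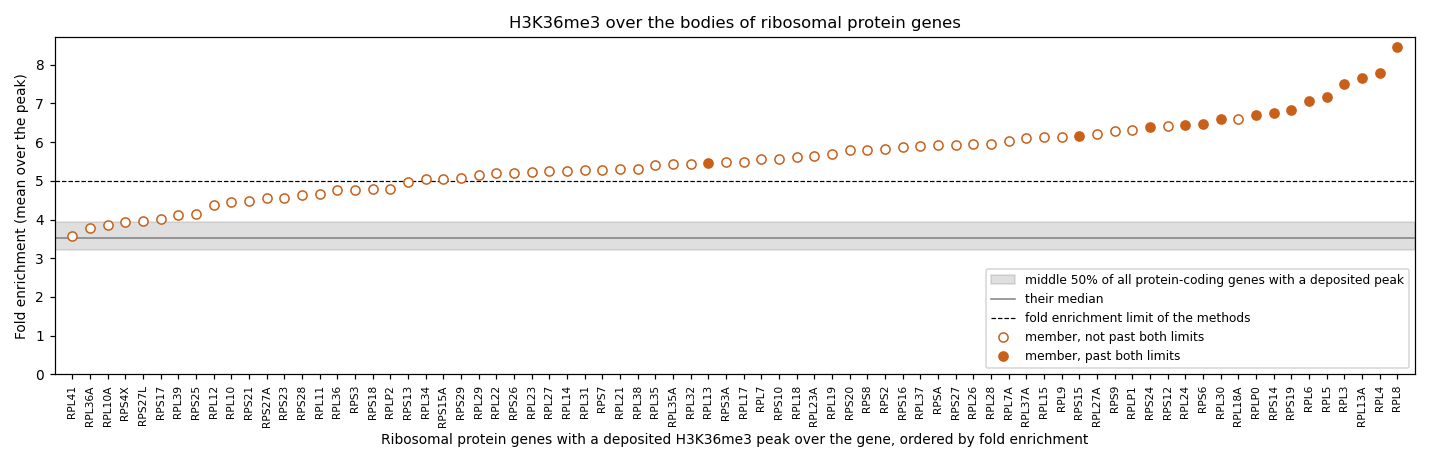
Fold enrichment of the highest deposited H3K36me3 peak over each member that has one, ordered by value, with 2 members not shown. Filled circles are members past both limits, open circles the others, the dashed line is the fold enrichment limit of 5, and the grey band is the middle 50% of all protein-coding genes with a deposited peak (3.22 to 3.95). All but 4 members lie above the band.

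With all deposited H3K36me3 peaks, 78 of 81 members (96.3%) had one in the body, against 56.3% of all genes. The share was 83.9% in genes with H3K4me3 at the TSS and 97.4% in the mitochondrial ribosomal protein genes, so it was not particular to members. The 3 members without were again RPL3L, RPL10L and RPL39L. At the limits that the methods give for H3K4me1 and H3K27me3, 77 members (95.1%) had a peak, against 25.0% of all genes. The fold enrichment of the highest deposited peak had a median of 5.49 in members (middle 50%, 4.99 to 6.15) and 3.53 in all genes (3.22 to 3.95), and 74 of the 78 members exceeded the upper of these bounds. The lowest was RPL41 with 3.59. In the 16 members past the limits the peak began downstream of the TSS, at a median of 571.5 bp and between 71 bp (RPL8) and 1126 bp (RPL4). In 11 of these 16 members it ran past the annotated end of the gene.

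CTCF was present at the TSS of 21 members (25.9%, 95% Wilson interval 17.6 to 36.4%), against 13.6% of all genes. Among genes with H3K4me3 at the TSS the share was 26.9% in members (95% Wilson interval 18.3 to 37.7%) and 19.3% in all. It was 23.3% in those of at most 10 kb and 17.9% in the mitochondrial ribosomal protein genes. In 18 of the 21 the peak lay over the TSS base. The highest was RPL26, with a fold enrichment of 37.7, in a peak on chromosome 17 from 8286285 to 8287331. RPL10A had 26.2, RPS15 22.7, RPS14 22.1 and RPS20 18.2, and RPL32 had 18.1. In the gene body CTCF was found in 33 members (40.7%), against 43.5% of all genes, which are longer. Among protein-coding genes of at most 10 kb the share was lower, 18.3%. Not all members are that short, and these short genes include those without H3K4me3 at the TSS. Among members with H3K4me3, the lower bound for the share with CTCF at the TSS, 18.3%, lay below the 19.3% of all genes with H3K4me3.

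H3K27me3 past the limits was present at 0 of 81 members, both at the TSS, against 1.22% of all genes, and in the body, against 2.96%. A count of 0 of 81 allows a share of up to 4.53% at the upper Wilson bound, and both background shares lie below that bound. All deposited H3K27me3 peaks together touched the body of 2 members, RPL37A and RPS9, against 20.7% of all genes. In RPL37A the peak covered 1.15% of the annotated gene and in RPS9 1.87%. The paralogs RPL3L, RPL10L and RPL39L, unmarked at the TSS, had no deposited H3K27me3 peak in the body.

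Large and small subunit genes had similar values. H3K4me3 fold enrichment had a median of 25.9 in the 46 large subunit genes with a peak and 25.5 in the 32 small subunit genes, and the widths were 2902 and 2677.5 bp. H3K36me3 past the limits lay in the body of 10 of 49 and 6 of 32. The 29 members with a small nucleolar RNA gene inside them had wider H3K4me3 peaks than the 49 marked members without, 3074 against 2696 bp, at fold enrichments of 25.8 and 25.5. The TSS of another protein-coding gene, in some cases a readthrough gene such as RPL17-C18orf32, lies within 1 kb of 17 members. These had H3K4me3 peaks of 3156 bp, against 2696 bp for the other 61, and 1 of the 17 (RPL4) had H3K36me3 past the limits in the body.

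Other genes of translation resembled the members in part. Of 20 translation factors and other genes known for TOP messages, 17 had the C and 4 pyrimidines at the TSS and 19 had H3K4me3 there. Their median peak width was 3112 bp for H3K4me3, above that of the members, and 6494 bp for H3K9Ac. The pyrimidine start is what the choice of genes by TOP messages selects for, so its share is no separate likeness. EEF2, the elongation factor of translocation, had a fold enrichment of 7.91 for H3K36me3 near the TSS. VIM, an intermediate filament gene on this list, had neither H3K4me3 nor H3K9Ac at the TSS, and its H3K27me3 peak there had a fold enrichment of 4.195. All of 26 ribosome biogenesis genes, such as FBL and NCL, had H3K4me3, but 2 had the pyrimidine start and their median H3K9Ac width was 3596 bp. H3K36me3 past the limits lay in the body of 3 of the 20 and 1 of the 26.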

How the data were processed

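Chromatin of HCT116 cells was immunoprecipitated with 1 antibody per library and sequenced. The authors aligned reads to hg19 with BWA and called broad peaks against input, using MACS2 in its broad mode (cutoff 0.1). The submitters' processing notes name BWA 0.7.12, SAMtools 0.1.19, bcl2fastq 2.20.0.442 and MACS 1.4.2, so the version of MACS is unsure. The deposited lists give the fold enrichment of each peak as a ratio, averaged over the broad peak, and −log10 p-values and q-values, all made by the authors' peak caller. A deposited display score was not used. Reads per library are not in these lists, so the depth is unknown. The study's methods give paired-end 75-base reads, and the labels paired-end or single-end. H3K27Ac was not analysed here.

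Protein-coding genes were taken from GENCODE 44 on hg19, with the canonical transcript giving the TSS. A gene had a mark when a peak past the limits overlapped the TSS ± 1 kb, or the gene body, by at least 1 bp, and the highest peak gave its fold enrichment and width. Sequences came from the hg19 genome. Steps ran in Python 3.11.15 with pandas 2.3.3, NumPy 2.4.6, SciPy 1.17.1 and Matplotlib 3.10.9. Tested on simulated peaks at 200 genes, of which 103 passed the limits, the overlap step found 103 and no other. It equalled bedtools 2.31.1 for all 6 marks. With 1 library per mark, no test was run.

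Genes named are the 5 highest, lowest, widest and narrowest H3K4me3 peaks, members without H3K4me3 or H3K9Ac, the 5 highest of CTCF and H3K36me3, 4 paralogs, 9 members named for their roles, and examples that a sentence singles out after their values were seen. The individual values of 2 members and the sequence of 1 are not reported here, though counts and medians include them. The family and the gene lists were picked with earlier results of these data known, while the membership rule itself reads symbols only. Counts were repeated without limits, after exchanging the limits between both groups of marks, with 1.5 times the fold enrichment limit, with windows of 0.5 and 2 kb or the TSS base, from other transcript starts, with the widest peak, and leaving out members with a neighbouring TSS.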

Additional observations from a re-analysis of the deposited data

How the results depend on the processing

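Of 100 alternative values for 17 results, 87 stayed within 1.5 times the reported count or within its error, and 13 moved. H3K4me3 and H3K9Ac stayed at 78 members under each of the 7 alternatives for the TSS. The H3K4me1 count of 53 became 4 at the limits of the other marks (all genes, 7%), 28 within 0.5 kb (41.6%) and 8 over the TSS base (33.4%). CTCF at the TSS went from 21 to 34 with all deposited peaks (29.5%). H3K36me3 at the TSS went from 14 to 71 with all deposited peaks (6.49%), 70 at the limits of the other marks (3.88%), 2 with the fold enrichment limit multiplied by 1.5 (0.104%), 4 within 0.5 kb (0.0645%) and 0 over the TSS base (0.00496%). In the body it went from 16 to 78 (56.3%), 77 (25.0%) and 3 (0.114%) under the first 3 of these. H3K27me3 in the body went from 0 to 2 with all deposited peaks (20.7%). Of 40010 deposited H3K36me3 peaks, 90 passed the limits. The 4 alternatives added after seeing the data, for the H3K4me1 and H3K9Ac layout, moved neither count past 1.5 times. No paired analysis was possible because there was a single library per antibody. Differences between wells, antibodies and depths cannot be told apart from differences between marks.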

Other observations

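The genome also holds 1587 annotated pseudogenes of ribosomal proteins, most of them processed copies of the messenger RNA that were inserted without the promoter of the parent gene. H3K4me3 past the limits lay within 1 kb of the start of 12 of them (0.756%), and H3K9Ac of 25 (1.58%). Of the 1563 with no protein-coding TSS within 2 kb, 6 had H3K4me3 and none of these peaks lay over the start itself. H3K4me1 lay near 72 of the 1587 (4.54%), CTCF near 29 (1.83%) and H3K27me3 near 10 (0.630%). H3K36me3 past the limits lay near 0, which allows a share of up to 0.241% at the upper Wilson bound. Few genes of any kind passed these limits, since the share at the TSS was 0.298% in all protein-coding genes. With all deposited peaks H3K36me3 lay near 188 of the 1587 pseudogenes, beside 6.49% of all protein-coding genes.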
